A study of Homo sapiens with 4 samples.

Results

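The genes examined here were 40 genes of mitosis and of the spindle checkpoint, taken from an RNA-Seq comparison of MDA-MB-231, a human cell line of triple-negative breast cancer, with LM2-4175, a lung-metastatic derivative of it that the table names LM2. They were chosen by gene symbol from the 57815 genes of the table, and each symbol was found. MDA-MB-231 was established from a pleural effusion, and both lines were grown untreated in the same serum-containing medium. Each line was sequenced in 2 libraries, 4 in all, and the authors pooled the libraries of a line into 1 FPKM (the number of read pairs on a gene for its length and for all read pairs mapped) with a lower and an upper bound. The 2 lines therefore could be compared only as 1 value against 1 value, without a replicate check, and the bounds were the only measure of error.

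Cells enter mitosis when cyclin B and CDK1 are activated. Kinetochores then bind microtubules of the spindle, and the spindle checkpoint holds back the anaphase-promoting complex until each chromosome is attached. Most of the genes involved are transcribed in the G2 and M phases of the cell cycle, under the control of the MuvB complex with B-MYB and FOXM1, and their mRNA is abundant in dividing tumour cells. In bulk RNA a smaller share of cells in G2 and M phase and less mRNA per such cell cannot be told apart.

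Because many promoters of this kind carry a cell cycle genes homology region (CHR), which is bound by the MuvB complex, and CCAAT boxes, which are bound by NF-Y, the promoters were read first. The 150 bases before the start of 6 of the genes are shown, those of the genes called in the comparison and then those with the highest mean FPKM for which an entry was found (RefSeq, GRCh38.p14). Each is written 5′ to 3′ in the direction of transcription and ends at the base before the start. Capitals mark TTTGAA, the core of the CHR, and CCAAT, each on either strand (TTCAAA and ATTGG).
BUB1 (chr2:110678064-110678213, minus strand): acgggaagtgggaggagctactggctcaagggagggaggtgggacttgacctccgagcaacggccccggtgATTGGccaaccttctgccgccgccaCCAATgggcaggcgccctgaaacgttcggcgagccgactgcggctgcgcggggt
CDCA8 (chr1:37692366-37692515, plus strand): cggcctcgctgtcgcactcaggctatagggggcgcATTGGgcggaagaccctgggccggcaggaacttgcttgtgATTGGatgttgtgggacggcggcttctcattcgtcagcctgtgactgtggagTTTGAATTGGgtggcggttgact
PTTG1 (chr5:160421705-160421854, plus strand): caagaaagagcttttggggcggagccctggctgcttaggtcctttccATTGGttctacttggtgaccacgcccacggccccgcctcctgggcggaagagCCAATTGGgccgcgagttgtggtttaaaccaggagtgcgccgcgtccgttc
CCNB1 (chr5:69167000-69167149, plus strand): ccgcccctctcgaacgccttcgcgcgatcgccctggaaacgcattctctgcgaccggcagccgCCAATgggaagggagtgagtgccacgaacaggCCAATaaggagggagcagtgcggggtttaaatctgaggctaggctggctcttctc
PRC1 (chr15:90994536-90994685, minus strand): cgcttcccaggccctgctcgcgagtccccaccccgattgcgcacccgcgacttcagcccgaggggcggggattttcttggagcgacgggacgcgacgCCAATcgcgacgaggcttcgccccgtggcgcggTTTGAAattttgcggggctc
ANLN (chr7:36389712-36389861, plus strand): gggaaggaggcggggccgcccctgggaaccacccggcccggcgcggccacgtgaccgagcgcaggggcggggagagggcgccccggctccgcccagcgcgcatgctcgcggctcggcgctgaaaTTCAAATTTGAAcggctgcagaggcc
BUB1, CCNB1 and PTTG1 showed CCAAT matches and no TTTGAA in these stretches. Variants of the CHR core were not marked, so these promoters were not shown to lack a CHR. In BUB1 the variant TTCGAA begins at base 2 from the start, outside the stretch shown. In PTTG1 a CCAAT and an ATTGG overlap. In CDCA8 the last ATTGG shares its first base with the TTTGAA before it, and in ANLN a match on each strand stands side by side, close to the start.

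Of the 40 genes, 34 had a promoter entry, and BUB3, TTK, AURKA, BIRC5, TPX2 and UBE2C had none. Within 250 bases before the start, TTTGAA was found in 18 of 34 promoters (52.9%), against 8.14% of the promoters of 9452 genes tested and 13.6% of 27305 promoters in all. Within 50 bases of the start it was found in 11 of 34 (32.4%), against 1.22% of the genes tested. CCAAT was found in 26 of 34 (76.5%), against 35.3%, and both motifs together in 16 of 34 (47.1%), against 3.32%. Of 80 promoters of further mitotic genes, described below, 27.5% held TTTGAA and 52.5% held CCAAT, shares between those of the 40 genes and those of the genes tested. The 6 promoters in which neither motif was matched were those of CDC25B, CDC25C, CENPE, NDC80, NUF2 and MYBL2, which says only that these letters were not in this window.

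**Figure D1:**
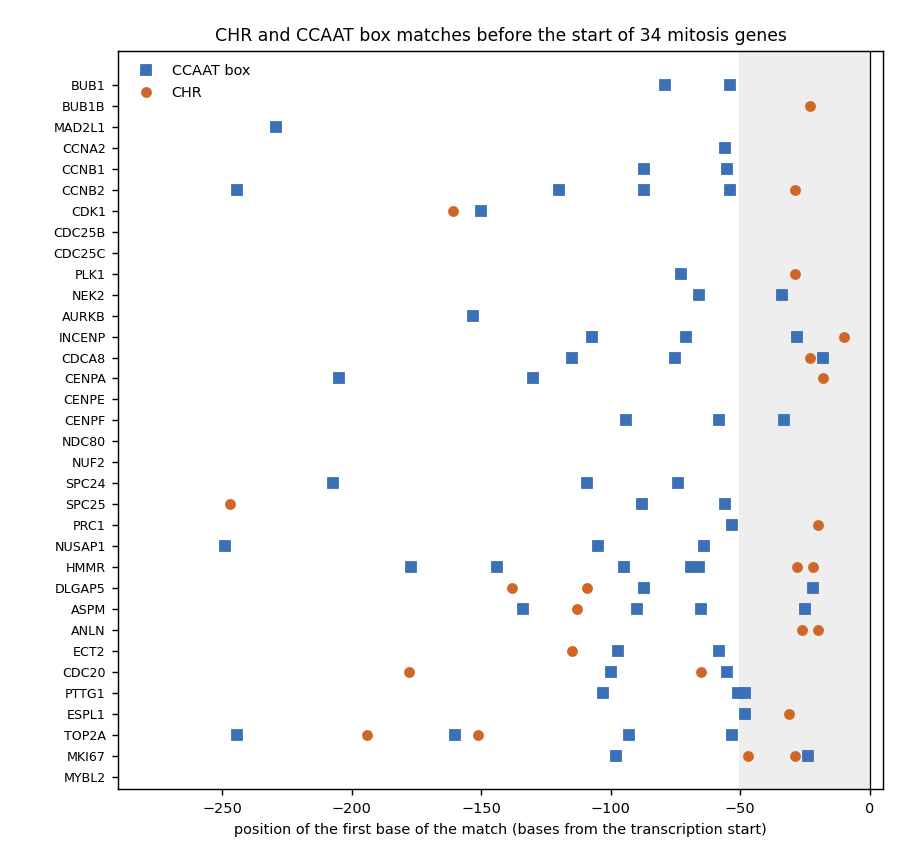
Matches of the CHR core (circles) and the CCAAT box (squares) before the transcription start of the 34 genes with a promoter entry; the horizontal axis gives the first base of the match in bases from the start, and the shaded band covers the last 50 bases. In 11 of the 34 promoters a CHR match lies in the shaded band, mostly closer to the start than the CCAAT matches.

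The changes are given as the log2 ratio of FPKM + 1 in LM2 over MDA-MB-231, and a gene was tested where its status was OK in both lines and its mean FPKM was at least 0.5, which 13911 genes and all 40 mitosis genes met. A gene was called where it differed by at least 1.5-fold and the bounds of the lines did not overlap. Lower FPKM in LM2 was listed for 37 of the 40 genes, against 54.5% of all genes tested, and for 35 of them when the lines were scaled to the same FPKM sum (TPM) or quantile normalized, where ASPM and PTTG1 turned slightly higher. The median change of the 40 genes was −0.41 (0.753-fold), against −0.04 for all genes tested and −0.10 for the 6934 genes tested at mean FPKM from 11.2 to 288.5, the range that the mitosis genes span. The middle 50% of the changes lay between −0.55 and −0.20. Past 1.5-fold, 10 of the 40 genes were lower (11.8% of all genes tested) and 1 was higher (10.3%). Of the 6934 genes in the same FPKM range, 60.7% were lower, 11.5% were lower past 1.5-fold and 6.06% were higher past it.

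With the bounds taken into account, 2 of the 40 genes were called lower in LM2, BUB1 and CDCA8, and none was called higher. The background was 4.61% lower and 4.67% higher over all genes tested, and 4.69% and 2.74% in the FPKM range of the 40 genes. The count of calls is thus near the background. Most of the genes were lower by less than 1.5-fold. Of the FPKM of all genes added up, the 40 genes took 0.663% in MDA-MB-231 and 0.559% in LM2. Their order by level differed little between the lines (Spearman's rho 0.96 over the 40 genes, which share their libraries). The change did not follow the level, with a rho of −0.04 between change and mean FPKM.

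**Figure D2:**
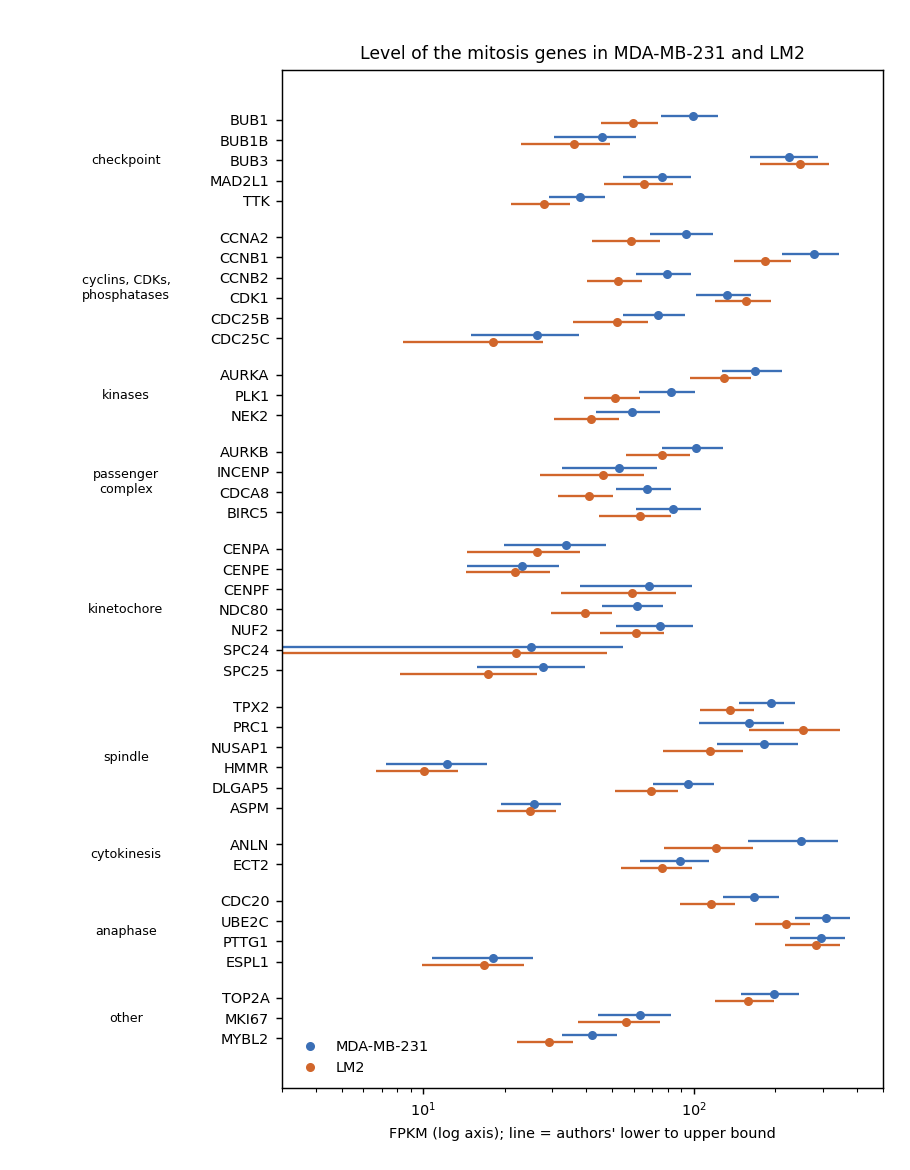
FPKM of the 40 genes on a log axis, by role, in MDA-MB-231 (blue) and LM2 (orange); points are the pooled values and lines run from the lower to the upper bound of the authors, with the lower bounds of SPC24, which are 0, running off the axis. Orange lies left of blue for 37 genes, and the lines of a gene are apart only for BUB1 and CDCA8.

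The upper bound lay 26.4% above the FPKM in MDA-MB-231 and 27.6% in LM2 (medians over the 40 genes, from 22.7% to 119%). Both called genes, at 1.66-fold and 1.64-fold between the lines, were among those with narrow bounds, and ANLN, at 2.06-fold, had wider ones. Of the genes, 12 were within 0.25 log2 of no change, 17 were lower by more than that without reaching 1.5-fold, 10 were lower past 1.5-fold and 1 was higher past it.

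Among the checkpoint genes, BUB1 (GRCh37, chr2:111395105-111435640, minus strand), a kinase that recruits other checkpoint proteins to the kinetochore, was called. MDA-MB-231 had 99.4 FPKM (75.7 to 123.2) and LM2 had 59.8 FPKM (45.6 to 74.0), a change of −0.72, and its bounds were 1.66 FPKM apart. TTK, the kinase known as MPS1 that starts checkpoint signalling, was listed at 38.0 and 27.9 FPKM. BUB1B, which encodes BUBR1, an inhibitor of the anaphase-promoting complex, was at 45.8 and 36.0 FPKM. MAD2L1, which encodes the MAD2 protein of the same inhibitory complex, was at 76.3 and 65.4 FPKM. These 3 genes were lower in LM2 with overlapping bounds, by −0.43, −0.34 and −0.22. BUB3, which carries BUB1 and BUBR1 to the kinetochore, was at 224.5 and 246.9 FPKM and was 1 of the 3 genes with a higher value in LM2 (0.14). BUB3 was thus 2.26 times as high as BUB1 in MDA-MB-231, and 4.13 times in LM2.

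Of the genes for cyclins and for the enzymes that switch on CDK1, each was lower in LM2, while CDK1 itself was not. CCNB1, the main mitotic cyclin, was listed at 277.4 FPKM (211.3 to 343.5) and 184.2 FPKM (140.3 to 228.0). CCNB2 was at 79.4 FPKM (61.3 to 97.6) and 52.3 FPKM (40.1 to 64.5), and its bounds overlapped by 3.27 FPKM. CCNA2, the cyclin of S and G2 phase, was at 93.2 FPKM (68.9 to 117.6) and 58.6 FPKM (42.2 to 75.1). The 3 cyclins were past 1.5-fold, with changes of −0.59, −0.59 and −0.66, and none was called. The phosphatases that activate CDK1 were lower without reaching 1.5-fold, with CDC25B at 73.7 and 51.9 FPKM (−0.50) and CDC25C at 26.3 and 18.1 FPKM (−0.52). CDK1 was at 132.5 and 156.5 FPKM (0.24), with bounds that overlapped over 43.6 FPKM. In MDA-MB-231 the FPKM of CCNB1 was 2.09 times that of CDK1, and in LM2 it was 1.18 times, a pair chosen after its values were seen.

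The mitotic kinases were also lower in LM2. PLK1, which acts from mitotic entry to cytokinesis, was listed at 82.1 FPKM (62.8 to 101.3) and 51.3 FPKM (39.2 to 63.4), a change of −0.67, and its bounds overlapped by only 0.521 FPKM. AURKA, the kinase of the spindle poles, was at 169.2 and 129.6 FPKM (−0.38), and NEK2, which splits the centrosomes, was at 59.2 and 41.6 FPKM (−0.50).

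The 4 subunits of the chromosomal passenger complex, which corrects faulty attachments, were all lower in LM2. CDCA8 (GRCh37, chr1:38158153-38175391, plus strand), which encodes borealin and helps to bring the complex to centromeres, was called. It had 67.1 FPKM (51.8 to 82.4) in the parental line and 40.9 FPKM (31.4 to 50.4) in LM2. Its change was −0.70 and its bounds were 1.34 FPKM apart. AURKB, the catalytic subunit, was at 102.3 and 76.6 FPKM (−0.41), and BIRC5, which encodes survivin, was at 84.0 and 63.3 FPKM (−0.40). INCENP, the scaffold of the complex, was at 52.8 and 46.2 FPKM (−0.19), and the bounds of these 3 subunits overlapped between the lines. The calls of BUB1 and CDCA8 were lost at a limit of 2-fold, and also when the lines were scaled to the same FPKM sum, to the same median or by quantiles, with changes from −0.67 to −0.60 for BUB1 and from −0.65 to −0.58 for CDCA8.

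The 7 kinetochore and centromere genes were lower in LM2, 2 of them past 1.5-fold. NDC80 and NUF2 encode the end of the NDC80 complex that grips microtubules, and SPC24 and SPC25 the end that faces the centromere. NDC80 was listed at 61.4 FPKM (45.9 to 77.0) and 39.7 FPKM (29.6 to 49.8), a change of −0.62, and its bounds overlapped by 3.96 FPKM. SPC25 was at 27.8 FPKM (15.8 to 39.7) and 17.3 FPKM (8.20 to 26.3), a change of −0.66. Their partners were closer between the lines, with NUF2 at 75.3 and 61.2 FPKM (−0.29) and SPC24 at 25.0 and 21.9 FPKM (−0.18). Relative to its level, SPC24 had the widest bounds of the 40 genes, from 0 to 54.8 FPKM in MDA-MB-231. CENPA, the histone variant of centromeres, was at 33.6 and 26.2 FPKM (−0.35), CENPF, a large outer kinetochore protein, at 68.3 and 59.1 FPKM (−0.21), and CENPE, a kinetochore motor, at 23.2 and 21.9 FPKM (−0.08).

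The genes of the spindle held the only member past 1.5-fold higher. PRC1 (GRCh37, chr15:91509270-91538859, minus strand), which bundles the antiparallel microtubules of the midzone, was listed at 160.0 FPKM (104.4 to 215.6) and, in LM2, 254.4 FPKM (160.2 to 348.6), a change of 0.67, with bounds that overlapped over 55.4 FPKM. In rank among the 40 genes it stood 11 in MDA-MB-231 and 2 in LM2. NUSAP1, which binds and bundles spindle microtubules, was at 182.6 FPKM (122.3 to 242.8) and 114.4 FPKM (76.9 to 151.9), a change of −0.67. TPX2, an activator of AURKA, was at 192.4 and 136.3 FPKM (−0.49), and DLGAP5, which stabilizes kinetochore fibres, was at 95.1 and 69.3 FPKM (−0.45). HMMR, a spindle protein also known as a hyaluronan receptor, was the lowest gene of the list, at 12.2 and 10.1 FPKM (−0.26). ASPM, a protein of the spindle poles, hardly differed, at 25.7 and 24.8 FPKM (−0.05).

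In cytokinesis the largest difference of the list was found. ANLN (GRCh37, chr7:36429430-36493400, plus strand), the scaffold of the contractile ring, was listed at 250.2 FPKM (158.3 to 342.1) and, in LM2, 121.2 FPKM (77.3 to 165.1), a change of −1.04. It was not called, because its bounds were wide and overlapped by 6.86 FPKM. ECT2, which activates RHOA at the cell equator, was at 88.7 and 76.2 FPKM (−0.22). Between PRC1 and ANLN, which work in the same step of division, the ratio of PRC1 to ANLN was 0.639 in the parental line, and 2.10 in LM2.

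Of the genes of anaphase, CDC20, the activator of the anaphase-promoting complex, was listed at 167.6 FPKM (128.6 to 206.7) and 115.7 FPKM (89.0 to 142.3). Its change of −0.53 was the closest to the limit of 1.5-fold (0.58 in log2) from within, as CCNB1, at −0.59, was the closest beyond it. UBE2C, the ubiquitin-conjugating enzyme of that complex, was at 308.2 and 219.4 FPKM (−0.49) and the highest of the list in MDA-MB-231. Its substrate securin (PTTG1) was at 294.9 and 282.2 FPKM (−0.06) and the highest in LM2. Separase (ESPL1), which securin inhibits and which cuts cohesin, was at 18.0 and 16.8 FPKM (−0.10). CDC20 and UBE2C were thus lower in LM2 by more than the substrate and the protease, and the bounds of each gene overlapped between the lines.

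Among the remaining proliferation genes, the topoisomerase TOP2A was at 197.4 and 159.3 FPKM (−0.31) and MKI67, the gene of the Ki-67 antigen, at 63.3 and 56.2 FPKM (−0.17). MYBL2, which encodes B-MYB, was at 42.2 and 29.1 FPKM (−0.52), with bounds that overlapped by 3.36 FPKM. The medians of the 9 roles, of 2 to 7 genes each, ran from −0.63 for cytokinesis to −0.29 for the kinetochore. That of cytokinesis rests on ANLN and ECT2 alone, and that of the cyclins and their enzymes was −0.55. Each role thus had a lower median in LM2.

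The genes lie on 17 chromosomes, so their neighbours were compared. For each gene, the median change of the other tested protein-coding genes within 3 Mb was taken (3 to 137 genes), leaving the other mitosis genes out. Of the 40 genes, 38 were below the median of their neighbours, against 50.1% of 12075 protein-coding genes, and the median difference was −0.38. The exceptions were BUB3 and HMMR, the latter with 3 neighbours.

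Of the genes that stood out, several lay among neighbours that moved the same way. All 36 neighbours of PRC1 on chromosome 15 were higher in LM2, 12 of them called, and their median of 0.92 was above the change of PRC1 itself. CDK1 had neighbours at a median of 0.37, also above its own change. The neighbours of ANLN on chromosome 7 had a median of −0.55 (11 genes), those of NDC80 on chromosome 18 of −0.45 (13 genes) and those of BUB1 on chromosome 2 of −0.27 (29 genes). Neighbours of CDCA8 had a median of −0.05 (63 genes), those of PLK1 of 0.02 (29 genes) and those of CCNA2 of 0.27 (16 genes). The median of the genes around CDCA8, PLK1 and CCNA2 thus did not share their lower level. The number of gene copies was not measured, and its part in these changes was not tested.

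**Figure D3:**
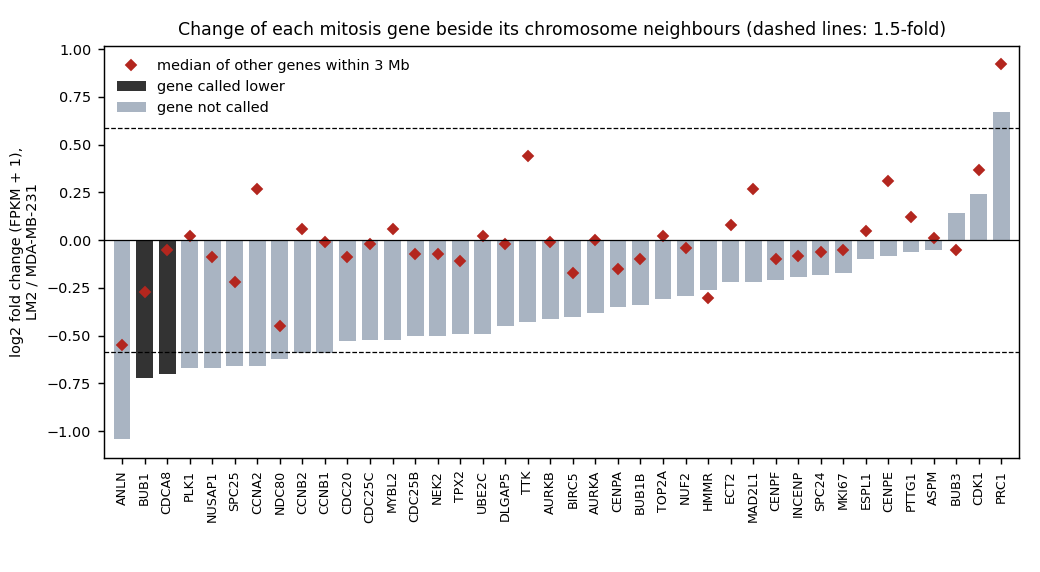
Bars show the log2 fold change of each of the 40 genes in order, dark where called, diamonds the median change of the other tested protein-coding genes within 3 Mb, and dashed lines 1.5-fold in each direction. The bars lie below the diamonds for 38 genes, and the diamond of PRC1, at 0.92, is the highest.

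The exons of 7 of the genes overlapped those of another gene of the table by more than 5% of their bases, and 29 had no overlap. PRC1 overlapped most, with 34.3% of its exon bases in exons of any other gene, the largest part in PRC1-AS1 on the other strand. It was followed by NUSAP1 (15.2%), PLK1 (12.8%), BUB1B (10.2%), CCNA2 (9.20%), CDC25C (8.80%) and CENPA (7.10%). The libraries were made with a TruSeq kit that does not mark strand, so reads from such overlaps cannot be told apart by strand, and the values of these genes, PRC1 above all, are uncertain by that. Without the 7 genes the median of the list was −0.40.

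A wider set of 98 mitotic genes was read in the same way, to see how far the lower level reached. Of these, 71 (72.4%) were lower and 27 higher in LM2, and of all genes tested 54.5% were lower. Their median was −0.19, between that of the 40 genes and that of all genes. Called lower were 4, and called higher was 1, shares of 4.08% and 1.02% near or below the background. Past 1.5-fold, 10 were lower (10.2%, against 11.8% of all genes tested) and 1 was higher (1.02%, against 10.3%).

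The only call in the opposite direction was MAD1L1, which encodes the MAD1 protein that brings MAD2 to unattached kinetochores, at 28.7 FPKM (18.8 to 38.5) and, in LM2, 74.4 FPKM (50.7 to 98.1), a change of 1.35. Its 32 neighbours had a median of 0.00. With MAD2L1 slightly lower, the ratio of MAD1L1 to MAD2L1 was 0.376 in the parental line, and 1.14 in LM2.

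Of 31 further kinetochore genes, 19 were lower (61.3%, against 54.5% of all genes tested), with a median of −0.14. Called lower were 2 (6.45%, against 4.61%). SKA1, which tracks microtubule ends, was at 19.9 and 10.2 FPKM (−0.89), among neighbours with a median of −0.58. PMF1, a subunit of the MIS12 complex, was at 49.9 and 27.3 FPKM (−0.85). In PMF1, 23.3% of the exon bases lay in exons of any other gene, the largest part in the readthrough gene PMF1-BGLAP. Of 17 genes of the anaphase-promoting complex, 10 were lower (58.8%, median −0.14) and none was called. At the ends were ANAPC15 at 55.1 and 34.0 FPKM (−0.68) and ANAPC10 at 25.9 and 31.5 FPKM (0.27). The lower bounds of both genes were 0 in both lines, so these values are imprecise. Cohesin and condensin, which hold sister chromatids together and compact them, had 15 of 18 genes lower (83.3%, median −0.27) and none called. The extremes were NCAPG2 at 90.9 and 58.3 FPKM (−0.63) and WAPAL, the cohesin release factor WAPL, at 19.4 and 26.7 FPKM (0.45).

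Of 17 genes of mitotic entry and its transcription, 13 were lower (76.5%, median −0.17) and 1 was called lower (5.88%, against 4.61% of all genes tested). CKS2, a small subunit of cyclin-dependent kinases, was called lower, at 368.1 FPKM (283.0 to 453.3) and 192.4 FPKM (146.9 to 237.9), a change of −0.93 with bounds 45.1 FPKM apart. FOXM1 was at 90.5 and 71.4 FPKM (−0.34), with overlapping bounds. The MuvB subunit LIN52 was at 6.24 and 8.13 FPKM (0.33), the highest change of that list. Of 15 further spindle and midbody genes, 14 were lower (93.3%, median −0.30) and 1 was called lower (6.67%). FAM83D, which brings casein kinase to the spindle, was called lower at 56.7 and 34.5 FPKM (−0.70), and at the other end CKAP2L was at 38.7 and 39.1 FPKM (0.01).

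For comparison, 27 genes of DNA replication, expressed one phase earlier in the cycle, had a median of −0.16, with 18 lower and 9 higher. Past 1.5-fold, 5 were lower (18.5%, against 11.8% of all genes tested) and 0 were higher (against 10.3%). Called lower was 1 (3.70%, against 4.61% of all genes tested). POLA1, a DNA polymerase subunit on the X chromosome, was called lower, at 19.1 and 11.2 FPKM (−0.72), among 11 neighbours with a median of −0.75. At the ends of the list TYMS was at 136.6 and 73.1 FPKM (−0.89, not called) and FEN1 at 78.8 and 118.1 FPKM (0.58). In TYMS, 47.9% of the exon bases lay in exons of any other gene, the largest part in ENOSF1. No test of the difference between these lists and the 40 genes was possible on 1 value per line.

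**Figure D4:**
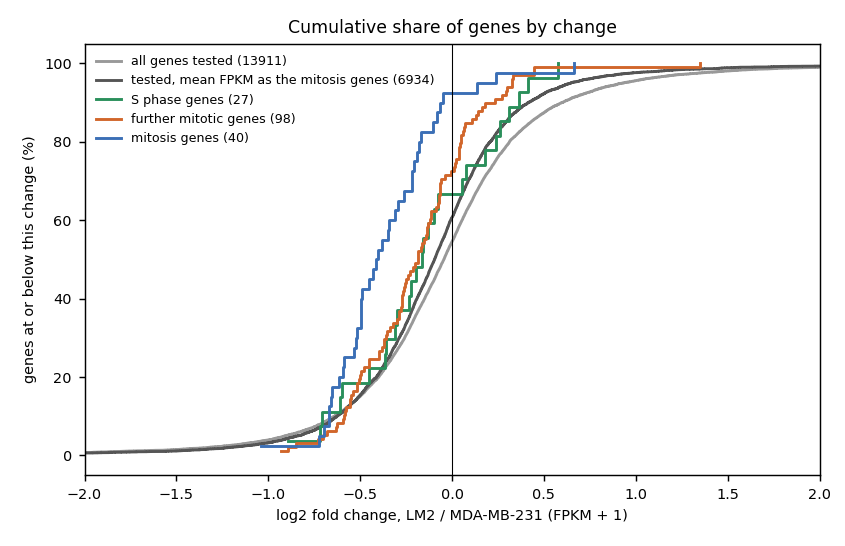
Cumulative share of genes (vertical axis, percent) by log2 fold change (horizontal axis, from −2 to 2) for all genes tested, the genes tested at the FPKM of the mitosis genes, the S phase genes, the further mitotic genes and the 40 mitosis genes. At no change the curve of the 40 genes stands at 92.5%, that of the further mitotic genes at 72.4%, that of the S phase genes at 66.7% and that of all genes tested at 54.5%.

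Markers were checked for the label of the lines. Of 7 genes known to be high in MDA-MB-231, CAV1 alone was called between the lines, at 587.3 and 151.1 FPKM, and VIM was at 1355 and 1768 FPKM. ESR1 and PGR, the receptors that triple-negative cells lack, were at most 0.033 FPKM, while ERBB2 was at 35.0 and 22.8 FPKM, GATA3 at 3.10 and 2.42 FPKM and CDH1 at 0.851 and 0.366 FPKM. The white blood cell markers PTPRC, CD3E and ITGAM were at or near 0 in both lines, CD14 was at 1.17 and 1.75 FPKM and LYZ at 0.448 and 0.160 FPKM. The endothelial markers CDH5 and VWF were near 0, KDR was called higher in LM2, at 0.971 and 2.48 FPKM, and PECAM1 was not analysed here. The table gives no fragment counts per gene, and no limit of detection was computed for values listed at 0.

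In promoters with TTTGAA, 16 of 18 of the genes were lower in LM2 with a median change of −0.32, and in those without it 16 of 16 were lower with a median of −0.50. With CCAAT, 24 of 26 were lower (median −0.33), and without it 8 of 8 (median −0.51). In this split, the genes without a match did not have smaller median changes. The split counts only matches that lie wholly before the start. TTTGAA lies across or just past the start in NDC80, NUSAP1, NUF2, MAD2L1 and CENPF, which were counted as without it. In a 300-base window, TTTGAA was found in 23 of 34 promoters, and the split was not repeated there. Whether either motif bears on the change was not tested.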

How the data were processed

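Total RNA of the MDA-MB-231 and LM2 lines was sequenced by the authors as paired reads of 150 bases, aligned to hg19 with TopHat 2.0 and quantified on GENCODE 19 genes with Cufflinks. The authors also used Cuffdiff to find genes that differ between the lines, and those calls were not used here. The deposited values are FPKM, pooled by the authors into 1 per gene and line and given with bounds below and above it and a status. The library kit (TruSeq) does not mark strand. Library normalization and what the bounds cover are not given in the sources used here. The study gives aligned read pairs per library, but the table holds no counts per gene, so precision was read from the bounds.

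Changes were computed as log2 ratios with a pseudocount of 1 for genes whose FPKM averaged at least 0.5 (Python 3.11.15, NumPy 2.4.6, pandas 2.3.3, SciPy 1.17.1, Matplotlib 3.10.9). A call needed 1.5-fold and bounds that did not overlap. This compares pooled libraries, so no p-value was computed. The call rule was tested on simulated data. Named are all 40 genes, with bounds for those past 1.5-fold or nearest to it, and, of each further list, every called gene and otherwise the largest change each way. Other genes, among them FOXM1, and all ratios were picked with their values in view. The members and lists were chosen with earlier results of these data known. Positions, overlaps and neighbours came from GENCODE 44 on GRCh37, and promoters from RefSeq on GRCh38.p14. The motif search covered both strands of the 250 bases before the start. Other pseudocounts, filters, limits and scalings were tried.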

Additional observations from a re-analysis of the deposited data

How the results depend on the processing

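The median change of the 40 genes stayed −0.41 with a pseudocount of 0.1 or none. It was −0.33 under TPM, −0.36 under median scaling and −0.29 after quantile normalization, so its direction held in these runs. Using no filter, or a mean of at least 5 FPKM, could not change it, as all 40 genes passed in each case. A limit of 2-fold and bounds alone act only on the calls. The 2 calls among the 40 genes fell to 0 at 2-fold and under TPM, median scaling and quantile normalization. The further mitotic genes called, 5 in all, numbered 1 at 2-fold, 2 under TPM, 3 under median scaling and 2 under quantile normalization, and the S phase call fell from 1 to 0 at 2-fold and under TPM. Past 2-fold, 1 gene was lower (3.92% of all genes tested) and 0 were higher (4.41%). Past 1.5-fold, 10 genes were lower in the main run (11.8% of all genes tested). That count was 6 under TPM (10.6%), 7 under median scaling (10.4%) and 4 under quantile normalization (10.8%). After quantile normalization, 4 of 40 is near the share of all genes tested. BUB1 and CDCA8, at 1.66-fold and 1.64-fold, lie under a limit of 2-fold, and their bounds were 1.66 and 1.34 FPKM apart before scaling. BUB1 and CDCA8 stayed past 1.5-fold (0.58 in log2) under TPM, at −0.65 and −0.62, and under median scaling, at −0.67 and −0.65. By the call rule, their bounds thus overlapped in these runs. After quantile normalization the changes were −0.60 and −0.58. Less their neighbours' median, the genes had a median of −0.38 (this and the other exclusions were added after seeing the data). TPM and median scaling moved all genes alike, and the median of the 40 genes stayed −0.36 from that of all genes; after quantile normalization the distance was −0.28. No paired analysis was possible because the table gives 1 pooled value per line, and for the same reason no library could be left out. What depth limits is seen only in the bounds.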

Other observations

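The table also lists 10 pseudogenes and retrogene copies of NEK2, DLGAP5, CDC20, UBE2C and PTTG1. All were listed at 0 in both lines except UBE2CP2, at 0.190 FPKM in MDA-MB-231. How reads that match both a gene and its copy were shared out is not given in the sources used here.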
